A study of Mus musculus with 12 samples.

Results

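The natriuretic peptide system of the heart was described in hearts of 2 mouse models with altered Lemd2, a gene for a nuclear envelope protein. It was taken as 7 genes, chosen by symbol: the hormone genes Nppa, Nppb and Nppc, the receptor genes Npr1, Npr2 and Npr3, and the protease gene Corin. All 7 were among the 24062 gene symbols counted. Whole-heart polyA RNA from 12 mice was sequenced in 4 groups of 3. The 2-month-old groups were WT mice and KI/KI mice, which carried the Lemd2 c.T38>G substitution on both alleles in every tissue. The hearts taken on postnatal day 1 (P1) were Lemd2-floxed, with loxP sites around exon 1 of both Lemd2 copies and no Cre, or cKO, with the same floxed copies plus a Myh6-Cre transgene that deletes the exon in cardiomyocytes only. Both lines came from injected B6C3F1 zygotes whose offspring were bred to C57BL/6N mice, and no Cre-only group was among the samples.

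Nppa encodes atrial natriuretic peptide (ANP) and Nppb encodes B-type natriuretic peptide (BNP), hormones that cardiomyocytes secrete when the heart wall is stretched. They act through Npr1, a membrane guanylyl cyclase that makes cGMP and so promotes salt excretion and vessel relaxation. Npr2 is the matching cyclase for C-type natriuretic peptide (CNP), the product of Nppc, Npr3 removes all 3 peptides from the circulation, and Corin is the cardiomyocyte protease that cuts the ANP precursor. Both hormone genes are active throughout the fetal heart, withdraw largely to the atria after birth and are standard markers of ventricular stress.

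Total counts ranged from 37063669 to 44789753 per heart, so that 3 counts, taken as the floor, corresponded to 0.0670 to 0.0809 CPM (counts scaled to a common library size). Lemd2 itself was at 32.0 to 34.8 CPM in WT, 24.8 to 25.6 in KI/KI, 24.3 to 25.4 in floxed and 6.59 to 13.1 in cKO hearts. The 7 general cardiomyocyte markers were above 0 in every heart. The hearts of a group differed in the summed level of 7 atrial markers (Myl7, Myl4, Sln, Bmp10, Stard10, Dkk3 and Kcnj3), from 526 to 3107 CPM in the cKO group. They also differed in lung epithelial markers, summed at 0.506 to 101 CPM over all hearts. In cKO replicate 4, Y-linked genes had 4 counts, against 9162 to 14996 in the other 11 hearts. In whole-heart RNA, fewer cells of a type and less RNA per cell cannot be told apart. CPM below are scaled over all 12 hearts by edgeR's TMM method, and each test used edgeR's quasi-likelihood model on the hearts compared, with adjustment over all genes tested and a call at an adjusted p under 0.05.

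Per kilobase of exon, Nppa was the most abundant of the 7 genes in all 4 groups and Nppc the least abundant. Mean Nppa was 2443 CPM per kb in WT, 5722 in KI/KI, 1390 in floxed and 5337 in cKO hearts. Mean Nppb was 158, 577, 80.8 and 1318 CPM per kb in the same order, and mean Nppc did not exceed 0.237. Nppb came next to Nppa in WT, KI/KI and cKO hearts. In floxed hearts Nppb, at 33.1, 44.5 and 165 CPM per kb, overlapped Corin, at 44.1, 43.4 and 40.6, and the order of their means rested on floxed replicate 3. Corin had a mean of 82.9 CPM per kb in WT and 72.7 in KI/KI hearts. In the cKO group Npr3 (24.4 ± 14.7, SD, n = 3) and Corin (22.5 ± 5.46) lay within each other's spread. By mean, Npr1 was the lowest of the receptors in every group, between 10.7 and 12.1 CPM per kb. In cKO replicate 6, however, Npr1 (13.3) lay above Npr2 (13.2) and Npr3 (11.7). The WT range of Npr1, 10.1 to 12.6, overlapped that of Npr3, 11.8 to 14.2. Nppa alone held 0.102% to 0.760% of all counts and ranked among genes from place 78 in floxed replicate 1 to place 4 in cKO replicate 4.

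**Figure D1:**
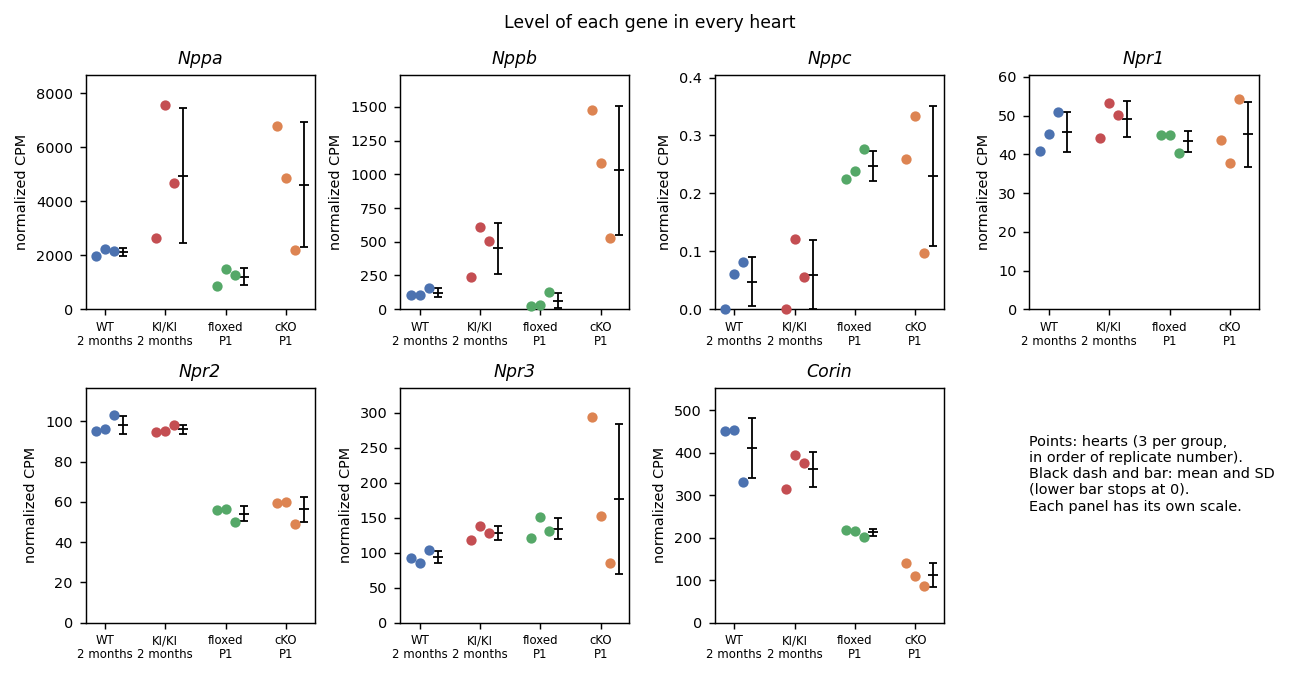
Normalized CPM (y axis, one scale per panel, starting at 0) of the 7 genes in each of the 12 hearts, by group (x axis); points are hearts, and the dash and bar are the mean and SD. Nppa and Nppb lay higher in every KI/KI heart than in any WT heart and in every cKO heart than in any floxed heart, and Corin lay lower in every cKO heart than in any floxed heart.

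Nppa and Nppb are neighbours on the plus strand of mouse chromosome 4 (GRCm38). Nppb occupies chr4:147985786-147987205 and Nppa chr4:148000722-148002074, with 14.9 kb between their starts. Because both genes lay above control levels in every mutant heart, the sequence before their starts is shown, from RefSeq on GRCm38.p6. Capitals mark matches on either strand to short motifs of factors known to act on these genes: GATAA (GATA factors), CATTCC (TEAD factors), AAGTG (Nkx2-5) and TATAAA (the TATA box). The Nppa run is the 250 bases before the annotated start, chr4:148000472-148000721. The Nppb run is a stretch of 27 bases, chr4:147985795-147985821, at positions -105 to -79 from the start that the RefSeq promoter table uses, and it lies in an exon of a longer annotated transcript.
Nppa: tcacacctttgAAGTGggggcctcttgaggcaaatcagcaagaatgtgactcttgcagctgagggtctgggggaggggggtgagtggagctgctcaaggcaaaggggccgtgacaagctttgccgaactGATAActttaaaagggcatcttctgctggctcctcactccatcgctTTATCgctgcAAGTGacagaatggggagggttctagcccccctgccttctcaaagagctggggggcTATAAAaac
Nppb: GGAATGcagctGATAAatcagaGATAA

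Both 250-base windows held 2 matches to GATAA, a motif with at least 1 match in 22.6% of the 32851 RefSeq promoter windows of the same length. The Nppb window held 1 CATTCC match, read as GGAATG on the printed strand, against 12.6% of windows with a match. The Nppa window held 2 AAGTG matches, against 40.7% of windows. Each window held 1 TATAAA, against 12.4% of windows. It lay at positions -9 to -4 from the start used for Nppa, but at -31 to -26 for Nppb. No exact match to TGANTCA (AP-1), the CArG box (serum response factor, CCWWWWWWGG with W for A or T) or the MEF2 site was in either window. Near matches were not searched. The Nppa letters ctttaaaagg, right after the GATAA on the printed strand, depart from this CArG pattern by 1 letter. The motifs do not overlap in the letters shown, and a match describes letters only.

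Nppa, the ANP gene, lay above control levels in both models and passed the test at P1. In 2-month-old mice it was at 1953, 2221 and 2165 CPM in WT hearts and at 2620, 7564 and 4664 CPM in KI/KI hearts. The groups did not overlap, but the KI/KI hearts spread widely, and replicate 4 lay close to the WT range. The log2 fold change was 1.23 (SE 0.35, 95% interval 0.39 to 2.08), with an adjusted p of 0.236 in edgeR and 0.0741 in DESeq2, so Nppa was not called. At P1 it was at 858, 1496 and 1254 CPM in floxed and at 6799, 4842 and 2209 CPM in cKO hearts. Every cKO heart lay above every floxed heart, and cKO replicate 6 was the lowest. The log2 fold change of 1.95 (SE 0.42) was called, with an adjusted p of 0.0249 in edgeR.

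Nppb, the BNP gene, had the highest fold change of the natriuretic peptide system genes that were tested, in both models. It was at 107, 104 and 159 CPM in WT hearts and at 241, 607 and 505 CPM in KI/KI hearts. Again no KI/KI heart overlapped the WT range. The log2 fold change was 1.87 (SE 0.36, 95% interval 1.02 to 2.72), with an adjusted p of 0.193 in edgeR and of 2.1e-06 in DESeq2. In floxed hearts Nppb was at 25.8, 34.8 and 129 CPM, and in cKO hearts at 1477, 1083 and 529 CPM. Floxed replicate 3 lay well above the other floxed hearts, yet all cKO hearts were higher still. The log2 fold change of 4.05 (SE 0.72, a 16.5-fold difference) had an adjusted p of 0.0149 in edgeR and was the 5th largest in size among 15317 genes tested. By abundance, Nppb moved from places 1373 to 6319 in floxed hearts to places 47 to 195 in cKO hearts.

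Read as a ratio within each heart, which no scaling between hearts can change, Nppb was also higher relative to Nppa. WT hearts held 5.50, 4.70 and 7.33 Nppb counts for every 100 Nppa counts, and KI/KI hearts 9.19, 8.02 and 10.8. Floxed hearts held 3.01, 2.32 and 10.3, and cKO hearts 21.7, 22.4 and 23.9. All KI/KI hearts lay above the WT hearts and all cKO hearts above the floxed hearts, and the cKO ratio was nearly the same in 3 hearts whose Nppa differed widely. On the log2 scale the ratio was higher by 0.69 in KI/KI than in WT and by 2.45 in cKO than in floxed hearts (p = 0.1 for each, exact two-sided permutation test, the smallest p that 3 against 3 allows).

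Nppc, the CNP gene, was at or near the floor throughout. It had 0, 2 and 3 counts in WT, 0, 5 and 2 in KI/KI, 10, 11 and 13 in floxed and 13, 16 and 4 in cKO hearts. It did not pass the filter on low counts in the 2-month-old hearts. At P1 its log2 fold change was -0.07 (95% interval -1.19 to 1.06), so a difference was not detectable at this depth.

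The cyclase receptors Npr1 and Npr2 showed no call in either model, with narrow intervals. Npr1 was at 41.0, 45.3 and 51.1 CPM in WT and at 44.1, 53.2 and 50.2 CPM in KI/KI hearts. In floxed hearts it was at 44.9, 44.9 and 40.3 CPM, and in cKO hearts at 43.7, 37.7 and 54.2 CPM. The groups of each model overlapped, and so did the ages. The log2 fold change of Npr1 was 0.11 (95% interval -0.16 to 0.37) in KI/KI and 0.06 (-0.27 to 0.38) in cKO hearts.

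Npr2 was at 95.2, 96.3 and 103 CPM in WT, at 94.6, 95.1 and 98.3 CPM in KI/KI, at 55.9, 56.6 and 50.1 CPM in floxed and at 59.3, 60.2 and 49.1 CPM in cKO hearts. The 2-month-old groups overlapped each other and so did the P1 groups, and no P1 heart reached the 2-month range. Its log2 fold change was -0.03 (95% interval -0.17 to 0.11) in KI/KI and 0.05 (-0.22 to 0.32) in cKO hearts.

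Npr3, the clearance receptor, was at 92.5, 85.6 and 103 CPM in WT hearts and at 118, 137 and 129 CPM in KI/KI hearts. The groups did not overlap, with a log2 fold change of 0.46 (SE 0.10) and an adjusted p of 0.193 in edgeR and 0.00438 in DESeq2. At P1, floxed hearts were at 120, 150 and 131 CPM and cKO hearts at 294, 152 and 84.7 CPM. The cKO hearts lay on both sides of the floxed range, and the log2 fold change of 0.41 (SE 0.41) was not called (adjusted p = 0.506 in edgeR). Without cKO replicate 4, the heart with the highest Npr3, the value was -0.19.

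Corin, the protease gene, was lower in cKO than in floxed hearts. In 2-month-old mice it was at 451, 454 and 330 CPM in WT and at 314, 393 and 375 CPM in KI/KI hearts, overlapping ranges with a log2 fold change of -0.18 (95% interval -0.52 to 0.16, adjusted p = 0.532 in edgeR). In floxed hearts it was at 219, 216 and 202 CPM, and in cKO hearts at 140, 109 and 86.5 CPM. All cKO hearts lay below all floxed hearts, with a log2 fold change of -0.92 (SE 0.18) and an adjusted p of 0.0205 in edgeR. Of the 7 general cardiomyocyte markers 4 were called lower in the same comparison and none was at 0. Summed, they reached 28479 to 31485 CPM in cKO and 38243 to 43668 CPM in floxed hearts, and their median log2 fold change was -0.47. Their part in the Corin result was not tested.

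In all, 0 of the 6 genes tested in KI/KI hearts were called by edgeR, where 0% of the 14592 genes tested were called, the smallest adjusted p was 0.101 and 2363 genes had an unadjusted p under 0.05. At an unadjusted p under 0.05, Nppa, Nppb and Npr3 were higher, against 8.92% of genes. The same 3 genes were the ones whose KI/KI hearts all lay above the WT hearts, against 11.4% of genes. DESeq2 called Nppb and Npr3 higher, where it called 2.25% of genes higher. At P1, edgeR called Nppa and Nppb higher, against 9.32% of 15317 genes, and Corin lower, against 7.57%. The share of all genes whose groups did not overlap was not counted at P1. Scaling by library totals turned the split of all genes called at P1 from 1427 higher and 1160 lower to 1117 and 1440 and left the 3 calls in place.

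The 3 calls at P1 did not hold in every fit that left out 1 heart. Without floxed replicate 1, floxed replicate 2 or cKO replicate 5, none of the 3 was called, though each kept its direction. Calls among the pathway genes described below also fell in these fits, from 3 higher and 10 lower to 0 higher and 2 or 3 lower. The losses were therefore not confined to these 3 genes, but the pathway lists were chosen and do not stand for all genes. The share of all genes called in these fits is not given here. Without floxed replicate 1 the adjusted p was 0.117 for Nppa, 0.0714 for Nppb and 0.0926 for Corin in edgeR. Without floxed replicate 2 it was 0.0727, 0.0651 and 0.0703, and without cKO replicate 5 it was 0.0816, 0.0543 and 0.0844. Nppa also lost its call without floxed replicate 3 (adjusted p = 0.0647 in edgeR), and without that heart the Nppb log2 fold change was 5.09. Over all 6 omissions the log2 fold change of Nppa lay between 1.54 and 2.28 and that of Corin between -1.13 and -0.76. In KI/KI hearts, Nppb was called only without KI/KI replicate 4 (log2 fold change 2.17, adjusted p = 0.0347 in edgeR), the KI/KI heart with the lowest Nppb. That fit called 56 of 14814 genes, against 0 of 14592 with all hearts.

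**Figure D2:**
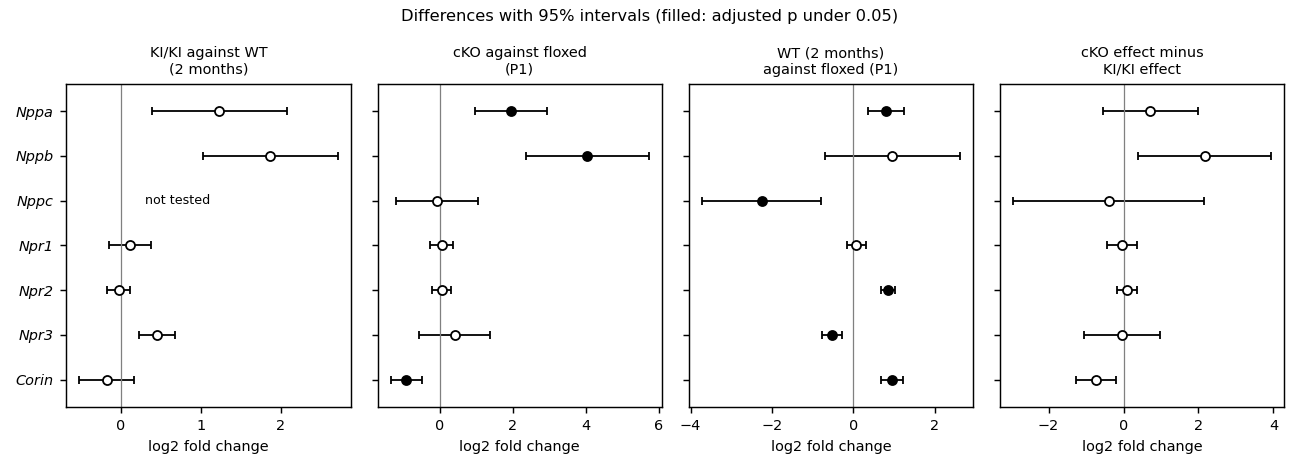
Log2 fold changes (x axis, one scale per panel) of the 7 genes (y axis) with 95% intervals from edgeR, in KI/KI against WT, cKO against floxed, WT against floxed, and the cKO effect minus the KI/KI effect; filled points had an adjusted p under 0.05. Nppa and Nppb sit at 1.95 and 4.05 in cKO hearts, and Npr1 and Npr2 sit close to 0 in both models.

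Because ANP is made mainly in the atria, the levels of Nppa, Nppb, Npr3 and Corin were also set against the 7 atrial markers in the same heart. Summed, these were at 2106 to 2224 CPM in WT, 2036 to 2917 in KI/KI, 1040 to 1672 in floxed and 526 to 3107 in cKO hearts. None was at 0 in any heart. Myl7 and Myl4 were the most abundant, with means of 494 and 623 CPM in floxed hearts. The 7 markers did not move as one. In cKO hearts 3 had positive and 4 negative log2 fold changes, from 1.39 for Bmp10 to -1.16 for Kcnj3. Stard10 (-0.87) was called lower there. In KI/KI hearts 4 were positive and 3 negative, and 0 were called. In floxed hearts the order of Nppa followed the order of the atrial sum, and so it did in cKO hearts, where replicate 6 was lowest in both. Per 1000 atrial CPM, Nppa was at 825, 895 and 848 in floxed and at 2188, 2390 and 4203 in cKO hearts, and at 883, 1055 and 974 in WT and 1287, 2593 and 2008 in KI/KI hearts. The groups of each model stayed apart on this scale. Nppb per 1000 atrial CPM was at 24.8, 20.8 and 87.0 in floxed, 475, 534 and 1006 in cKO, 48.5, 49.6 and 71.4 in WT and 118, 208 and 217 in KI/KI hearts, again without overlap. Corin, unlike its CPM, overlapped between the P1 groups on this scale, at 210, 129 and 136 in floxed and 45.2, 53.7 and 165 in cKO hearts, with replicate 6 inside the floxed range. It also overlapped at 2 months, at 204, 216 and 148 in WT and 154, 135 and 162 in KI/KI hearts. Npr3 overlapped at P1, at 116, 89.9 and 88.7 in floxed and 94.6, 74.8 and 161 in cKO hearts, and lay apart at 2 months, at 41.8, 40.7 and 46.3 in WT and 58.1, 47.1 and 55.4 in KI/KI hearts.

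As a covariate in the edgeR models, the atrial level was the mean log2 CPM of the atrial markers, not their summed CPM. By this mean, cKO replicate 5 (6.40) lay inside the floxed range (6.18 to 6.67). By the sum, it lay above every floxed heart. With this covariate at P1, the log2 fold change of Nppa was 2.06 (SE 0.11, adjusted p = 0.00044 in edgeR). That of Nppb was 4.15 (SE 0.74, adjusted p = 0.0209) and that of Corin -0.86 (SE 0.09, adjusted p = 0.00178). Under the same covariate Npr3 was called as well, at 0.46 (SE 0.12, adjusted p = 0.0281). Calls among the pathway genes also rose with it, from 3 higher and 10 lower to 5 and 13, so added calls were not particular to Npr3. The share of all genes called in this fit is not given here. In KI/KI hearts the covariate left Nppa at 0.78 (SE 0.19, adjusted p = 0.191) and Nppb at 1.52 (SE 0.25, adjusted p = 0.137), without a call.

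**Figure D3:**
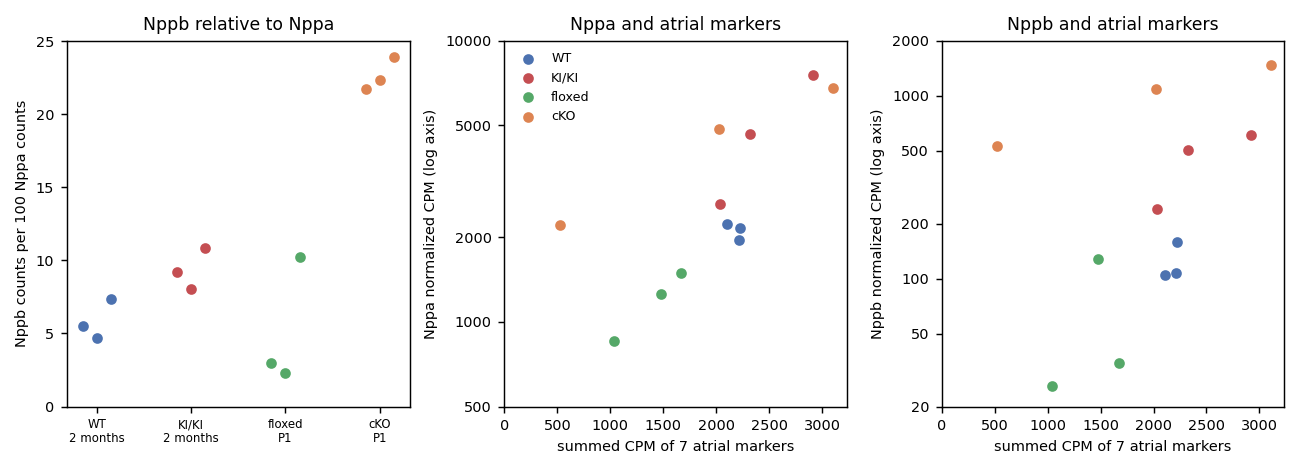
Left, Nppb counts per 100 Nppa counts (y axis, starting at 0) in each heart by group; middle and right, Nppa and Nppb normalized CPM (log axes) against the summed CPM of 7 atrial markers (x axis), each point a heart. The cKO hearts sit at 21.7 to 23.9 Nppb counts per 100 Nppa counts, and cKO replicate 6, with 526 CPM of atrial markers, still lies above every floxed heart in both hormone genes.

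The models were compared directly by the difference between the cKO effect and the KI/KI effect in one fit of all 12 hearts. Age, allele and kind of control differ between the models and cannot be told apart. The difference was 2.17 for Nppb (SE 0.81, 95% interval 0.39 to 3.95), with an adjusted p of 0.165 in edgeR. For Corin it was -0.73 (SE 0.24, 95% interval -1.26 to -0.19), with an adjusted p of 0.131 in edgeR. None of the 7 genes was called, against 2.43% of 15729 genes, and 2 of 7 had an unadjusted p under 0.05, against 20% of genes. Nppa differed by 0.72 (95% interval -0.56 to 2.00). The Nppb difference was called only without floxed replicate 3, the floxed heart with the highest Nppb, at 3.22 (adjusted p = 0.0248 in edgeR).

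WT hearts at 2 months and floxed hearts at P1, the controls of the models, differed in 5 of the 7 genes. Age and the floxed allele cannot be told apart here. Nppa was higher at 2 months (log2 fold change 0.81, SE 0.19, adjusted p = 0.00625 in edgeR), as were Npr2 (0.85, SE 0.08, adjusted p = 3.5e-05) and Corin (0.95, SE 0.12, adjusted p = 2.2e-04), where 31.8% of 15183 genes were called higher. Npr3 was lower (-0.52, SE 0.11, adjusted p = 0.00297), as was Nppc (-2.25, SE 0.66, adjusted p = 0.0120, on 5 counts in all against 34), where 33.4% of genes were called lower. Scaled by library totals, 2 of the members were called higher and 3 lower, since Nppa was no longer called (0.41, adjusted p = 0.0755 in edgeR) and Npr1 was called lower (-0.33, adjusted p = 0.0428), and all genes split into 2801 higher and 8202 lower, against 4824 and 5074. Nppc was not called by DESeq2 (adjusted p = 0.0676), nor by edgeR without WT replicate 2 (adjusted p = 0.0542).

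Nppb did not pass the test between the ages (log2 fold change 0.96, SE 0.66, adjusted p = 0.249 in edgeR). Without floxed replicate 3 it was higher at 2 months by 2.03 (adjusted p = 9.0e-04). The atrial markers also moved with age: 4 of 7 were called higher at 2 months, with a median log2 fold change of 1.62. With the atrial covariate none of the 7 genes was called between the ages, and Nppa was at -1.19 (SE 0.38, adjusted p = 0.147 in edgeR). The covariate, a mean log2 CPM, was at 7.66 to 7.86 in WT and at 6.18 to 6.67 in floxed hearts, without overlap. That fit can therefore hardly separate age from atrial level, and no conclusion is drawn from the lost calls. Calls among the pathway genes described below fell in it as well, to 0 higher and 1 lower. Per 1000 atrial CPM, Nppa was at 883 to 1055 in WT hearts and at 825 to 895 in floxed hearts, overlapping ranges. Npr3 on the same scale was at 40.7 to 46.3 in WT and at 88.7 to 116 in floxed hearts, and Corin at 148 to 216 and at 129 to 210.

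To see whether the rise was shared by the surrounding genes, the 20 genes of the count table within 250 kb of the Nppa start were listed. Clcn6 is a chloride/proton exchanger gene whose lower coordinate, not necessarily its start, lies 3.54 kb past the Nppa start. It was at 17.0 to 18.9 CPM in floxed and at 16.0 to 21.0 CPM in cKO hearts. The ranges overlapped, with a log2 fold change of 0.11 (SE 0.14, adjusted p = 0.605 in edgeR). Of the 16 neighbours tested at P1 apart from the hormone genes, 2 were called higher and 0 lower, against 9.32% and 7.57% of all genes tested, with log2 fold changes from -0.78 to 0.58 and a median of 0.10. These were Plod1, a collagen lysyl hydroxylase gene (0.58, SE 0.13, adjusted p = 0.0297), and 2510039O18Rik (0.31, SE 0.08, adjusted p = 0.0416). In KI/KI hearts 0 of 15 were called, with log2 fold changes from -0.66 to 0.46, and Clcn6 was at 0.12 (SE 0.09).

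**Figure D4:**
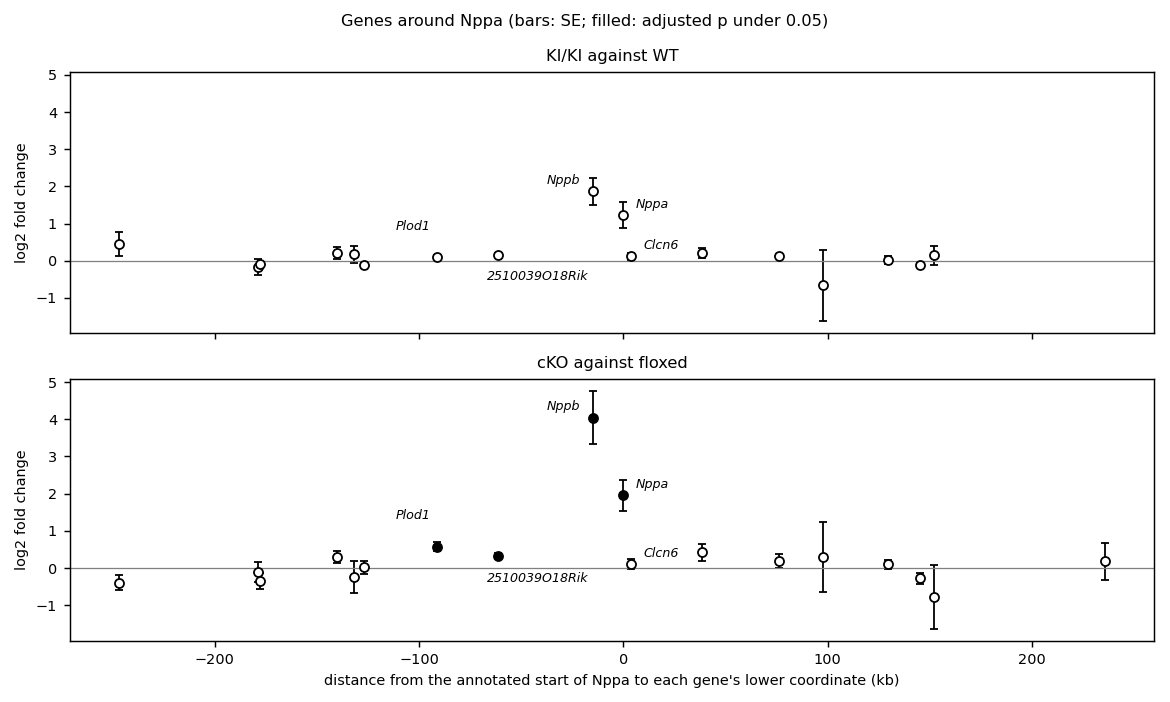
Log2 fold change (y axis, same scale in both panels) of each tested gene within 250 kb of Nppa, against the distance of its lower coordinate from the annotated Nppa start (x axis, kb), in KI/KI against WT and in cKO against floxed; bars are SE and filled points had an adjusted p under 0.05. Nppb and Nppa stand at 4.05 and 1.95 in cKO hearts, and the other tested genes lie between -0.78 and 0.58.

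The remaining genes of the pathway were followed as 4 lists: enzymes that process or clear the peptides, secretory granule genes, cGMP signalling genes, and transcription factors that act on Nppa and Nppb. In KI/KI hearts edgeR called 0 of the 43 genes tested on these lists, and DESeq2 called 2 lower, where it called 1.53% of genes lower. Those were Mme, the gene of neprilysin, which degrades natriuretic peptides, and Rgs2, a G protein regulator that cGMP-dependent kinase activates. Mme was at 45.2, 30.2 and 26.4 CPM in WT and at 19.0, 9.77 and 13.5 CPM in KI/KI hearts, a log2 fold change of -1.27 (SE 0.28) that edgeR did not call. Rgs2 was at 130, 91.3 and 60.4 CPM in WT and at 47.8, 31.1 and 39.1 CPM in KI/KI hearts, a log2 fold change of -1.25 (SE 0.28) that edgeR did not call. Neither gene overlapped between the groups, where the KI/KI hearts all lay below the WT hearts in 10.4% of genes.

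At P1, 1 of the 5 processing and clearance genes tested was called, where edgeR called 9.32% of all genes higher and 7.57% lower. Ide, the insulin-degrading enzyme that also cleaves ANP, was lower in cKO hearts, at 140, 167 and 175 CPM against 238, 220 and 240 CPM (log2 fold change -0.54, SE 0.09, adjusted p = 0.0130 in edgeR). The list's median was -0.11, where the median of all genes tested was -0.00427. Furin, a proprotein convertase that cuts the BNP precursor, was at 0.28 (adjusted p = 0.270), and Mme at -0.11 (adjusted p = 0.721). Of the 5 secretory granule genes tested 0 were called, with a median of -0.14.

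Of the 17 cGMP signalling genes, 3 were called higher and 3 lower in cKO hearts, against 9.32% and 7.57% of all genes, and the list's median was -0.06 on the log2 scale. The higher ones were Gucy1b3, a subunit of soluble guanylyl cyclase (0.63, SE 0.16, adjusted p = 0.0390), Vasp, an actin regulator phosphorylated by cGMP-dependent kinase (0.40, SE 0.09, adjusted p = 0.0243), and Pde9a, a phosphodiesterase selective for cGMP (0.44, SE 0.11, adjusted p = 0.0365). The lower ones were Pde1c, a calmodulin-dependent phosphodiesterase (-0.92, SE 0.20, adjusted p = 0.0273), Rgs2 (-0.93, SE 0.23, adjusted p = 0.0354) and Mrvi1, the kinase substrate also named Irag1 (-0.38, SE 0.10, adjusted p = 0.0403). Prkg1, the cGMP-dependent kinase gene, was at -0.06 (adjusted p = 0.768). All adjusted p-values are from edgeR.

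Of the 18 transcription factor genes, 0 were called higher and 6 lower in cKO hearts, against 9.32% and 7.57% of all genes, and the list's median was -0.22 on the log2 scale. Hey2, a repressor of atrial genes in ventricular muscle, was at 21.9, 26.9 and 27.0 CPM in cKO and at 104, 82.6 and 86.7 CPM in floxed hearts, a log2 fold change of -1.86 (SE 0.13, adjusted p = 0.00481 in edgeR). The 3 Mef2 genes, activators of muscle transcription, were lower as well: Mef2a at -0.61 (SE 0.07), Mef2d at -0.46 (SE 0.07) and Mef2c at -0.41 (SE 0.08). Nkx2-5 (-0.36, SE 0.08) and Gata6 (-0.46, SE 0.12), which code for cardiac activators, were the remaining calls. Gata4 was at 0.28 (adjusted p = 0.144 in edgeR) and Tead1 at 0.26 (adjusted p = 0.203). The cardiomyocyte markers given beside Corin were lower in the same hearts, and their part in these counts was not tested. Without floxed replicate 1, floxed replicate 2 or cKO replicate 5, the 4 lists together gave 0 calls higher and 2 or 3 lower, against 3 and 10 with all hearts. Without cKO replicate 4 there were 3 and 5, and without floxed replicate 3 there were 2 and 6.

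Between the controls, 35 of the 44 pathway genes tested were called, 15 higher and 20 lower at 2 months, against 31.8% and 33.4% of all genes. The counts were 9 and 27 when scaled by library totals, and 0 and 1 with the atrial covariate. The processing enzyme gene Pcsk6, whose product activates corin, was higher (log2 fold change 2.24, SE 0.14, adjusted p = 6.1e-06 in edgeR), and so was Mme (2.38, SE 0.20, adjusted p = 3.4e-05). Hey2 was lower, at -3.62 (SE 0.12, adjusted p = 4.6e-07 in edgeR), at 7.07 to 8.10 CPM in WT against 82.6 to 104 in floxed hearts. Gata6 was lower as well (-1.31, SE 0.11, adjusted p = 2.6e-05). Of the granule genes, Scg5, which codes for a chaperone, was lower (-3.74, SE 0.45, adjusted p = 5.7e-05) and Cpe, a carboxypeptidase gene, was higher (0.46, SE 0.07, adjusted p = 6.4e-04). Of the cGMP signalling genes, Pde3a, a phosphodiesterase that cGMP inhibits, and Rgs4 were higher by 1.11 (SE 0.09) and 1.66 (SE 0.14).

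**Figure D5:**
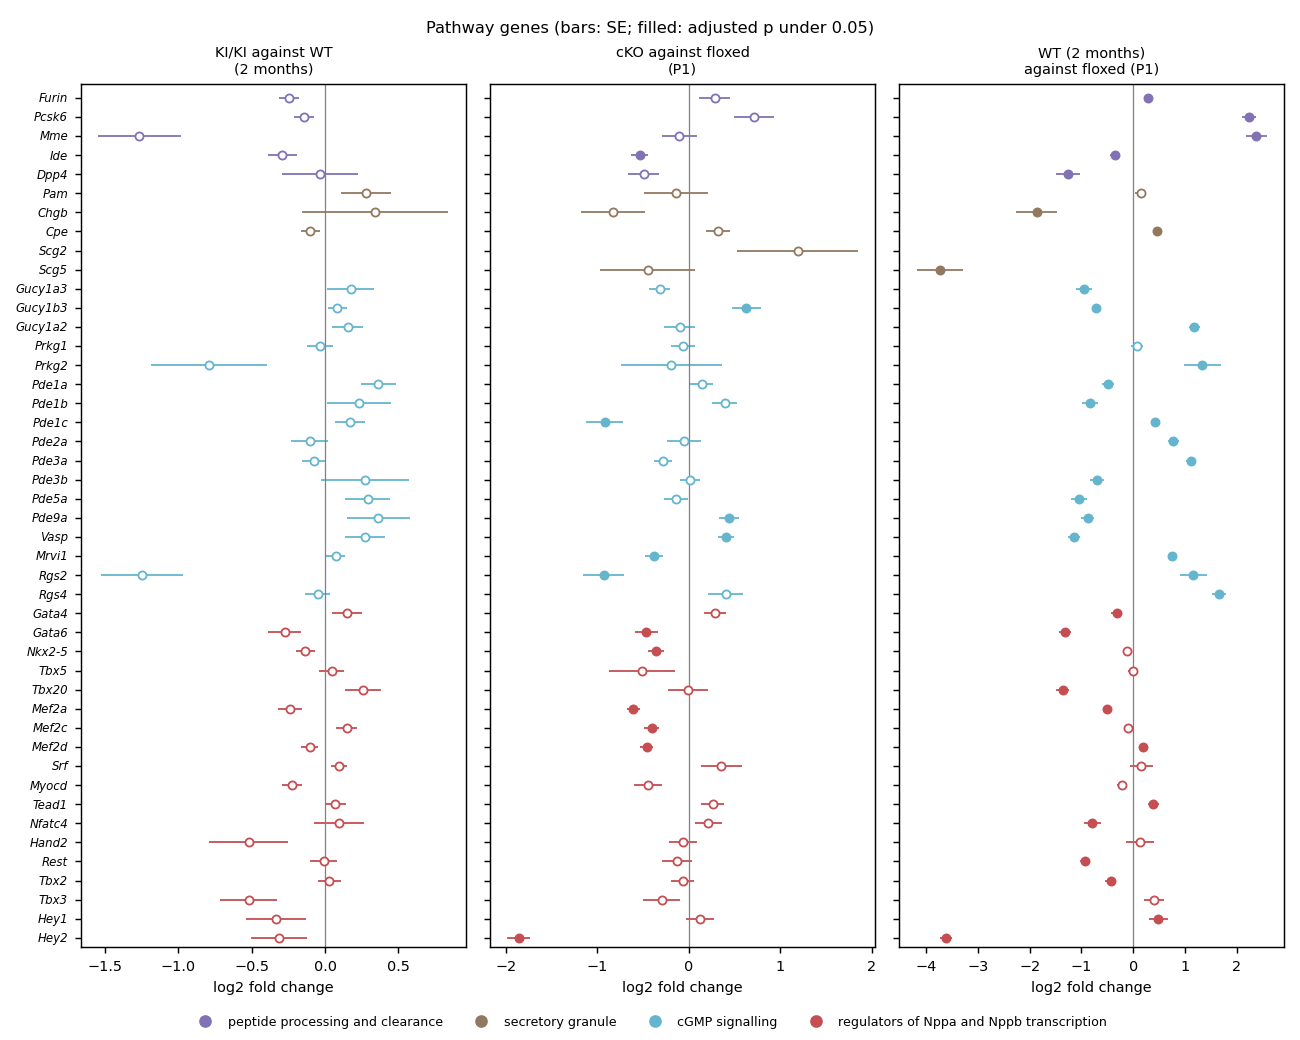
Log2 fold changes (x axis, one scale per panel) of the pathway genes tested (y axis), by list, in KI/KI against WT, cKO against floxed and WT against floxed; bars are SE and filled points had an adjusted p under 0.05. No point is filled in KI/KI hearts, and in cKO hearts the 6 filled transcription factor genes all lie below 0.

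Within groups, the 7 genes did not vary as one block. Over the 12 hearts, with the group mean of log2 CPM taken away, Nppa and Nppb had a Pearson correlation of 0.68, Nppa and Npr3 0.77, Nppa and Corin 0.69, and Nppa and Npr1 -0.12. The values are a description, and the hearts also differed in the summed atrial markers given above. Among 15722 other genes, those most like Nppa by this measure were Slc30a4 (0.98), Hilpda (0.96) and Tgfb2 (0.96). The ones most like Nppb were Pmaip1 (0.97), Pzp (0.95) and Hectd2 (0.94), and those most like Npr3 were C3 (0.99), Dpp6 (0.97) and Il31ra (0.97). The nearest to Npr1 were Gbp2 (0.95), Egf (0.94) and H2-D1 (0.93), and the nearest to Npr2 were Rdh1 (0.96), Col9a1 (0.96) and Zc2hc1c (0.95). For Nppc, at its low counts, they were Sorl1 (0.97), Camkk2 (0.96) and Etv5 (0.95). For Corin they were 2310005G13Rik (0.95), Smurf2 (0.93) and Ap4b1 (0.93).

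The other members lie apart from the hormone pair. Npr2 is also on chromosome 4, at 43629015 to 43651437 on the plus strand. Nppc is on chromosome 1 (86666293 to 86670573), Npr1 on chromosome 3 (90450591 to 90465928), Npr3 on chromosome 15 (11839896 to 11907837) and Corin on chromosome 5 (72299948 to 72504540), all on the minus strand. Exons of 5 of the genes share bases with an annotated antisense gene, 532 of them in Nppa with Gm13054. The strand setting of the counting is not given in the sources used here, so reads from the antisense partners cannot be told apart from those of the genes.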

How the data were processed

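Per the submitters' notes and the paper's methods, STAR 2.7.2b placed the trimmed reads (Trim Galore) on mm10, SAMtools 1.9 sorted them and HTSeq assigned them to genes, and the authors deposited the resulting raw counts. Bowtie2 2.3.4.3 served their quality check. Tests used edgeR 4.0.16 in R 4.3.3 (filterByExpr, TMM, quasi-likelihood test with robust dispersions, non-legacy mode), with Benjamini-Hochberg adjustment over all genes tested and the 6 hearts of each comparison in the model. Standard errors came from the log2 fold change and the F statistic, and intervals from the t distribution with the model's degrees of freedom. DESeq2 1.42.0, which the paper's methods name, and limma-voom in limma 3.58.1 were alternatives. One library per mouse gave each group 3 replicates. The 12 pairs of replicates differed by a chi-square per degree of freedom of 20.2 to 146, so none was a copy. Depth and floors, which cover counting error only, are given above. The scripts were tested on simulated counts.

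The 7 genes and all gene lists were chosen with earlier results of these data known. Named genes are the 7 members, up to 4 genes per pathway list called at P1 and up to 2 between the ages by smallest p, the tested neighbours of Nppa, and the 3 genes most like a member. Nkx2-5, Furin, Prkg1, Gata4, Tead1, Gucy1b3 and Mrvi1, Gata6 at P1, and Mme and Rgs2 in KI/KI hearts were named after their values were seen. Gene positions and exon lengths are from RefSeq GRCm38.p6 and GENCODE vM21, which match mm10. Alternatives were other normalizations, filters and tools, covariates, a replicate block, a fold change threshold of 2 and each heart left out. The legacy mode and the scale per atrial CPM were added after seeing the data.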

Additional observations from a re-analysis of the deposited data

Results flagged for a closer look

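Of the pathway genes, 2 transcription factor genes differed between the models by the interaction test in edgeR over all 12 hearts. Hey2 was lower by more in cKO than in KI/KI hearts, with a difference in log2 fold change of -1.53 (SE 0.24, adjusted p = 0.0135). Its log2 fold change was -1.86 in cKO hearts and -0.32 in KI/KI hearts, where WT hearts were already at 7.07 to 8.10 CPM. Mef2c differed by -0.54 (SE 0.11, adjusted p = 0.0362), from -0.41 in cKO hearts and 0.15 in KI/KI hearts. Hey2 was not called with a replicate block (adjusted p = 0.0764 in edgeR) or without WT replicate 2 (adjusted p = 0.0503), and was called in the other 11 fits that left out 1 heart. Mef2c was not called with the block (adjusted p = 0.134), and was called in 3 of the 12 fits that left out 1 heart, those without KI/KI replicate 5, floxed replicate 3 or cKO replicate 6, with adjusted p from 0.0215 to 0.108 over the 12. Over the pathway genes the block gave 0 calls, DESeq2 gave 4 higher and 6 lower, and upper-quartile scaling and library totals each gave 0 higher and 6 lower, against 0 and 2. Age, allele and kind of control cannot be told apart in these differences. No group had the 4 hearts that a test for a single outlying heart needs.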

How the results depend on the processing

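With 3 hearts per group, leaving out 1 heart moved the number of the 7 genes called between 0 and 1 in KI/KI against WT, between 0 and 3 in cKO against floxed, between 4 and 6 in WT against floxed, and between 0 and 1 for the difference between models. In the main fits edgeR called 0% of all genes in KI/KI against WT and 2.43% for the difference between models. It called 9.32% higher and 7.57% lower in cKO against floxed, and 31.8% higher and 33.4% lower in WT against floxed. DESeq2 called 2 of the 7 in KI/KI against WT, where it called 2.25% of all genes higher. In WT against floxed 5 of the 7 were called in the main fit. This number was 3 in one fit of all 12 hearts and 0 with the atrial covariate. It was 1 when a fold change above 2 was also required. Under the atrial covariate Nppa was at -1.19, Nppb at -2.24 and Npr1 at -0.14 there, and the covariate itself differed between the ages. Scaling by library totals moved the median of all genes in that comparison to -0.44, from -0.04 with TMM, and Npr1 to -0.33, while upper-quartile scaling left Npr1 at -0.00077. By library totals Npr2 was at 0.042 in KI/KI against WT, -0.016 in cKO against floxed and -0.058 for the difference between models, and Npr1 at -0.0077 in cKO against floxed. Log2 fold changes near 0 changed sign when 1 heart was left out. In KI/KI against WT, Npr2 lay between -0.060 and 0.016. In cKO against floxed, Nppc lay between -0.40 and 0.26, Npr1 between -0.088 and 0.18, Npr2 between -0.0054 and 0.14, and Npr3 between -0.19 and 0.74. For the difference between models, Nppc lay between -1.01 and 0.66, Npr1 between -0.19 and 0.075, and Npr3 between -0.63 and 0.29. Lung marker covariates changed no call of the 7 genes.

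WT and floxed hearts share replicate numbers. Deviations of same-numbered hearts correlated at -0.24, -0.29 and -0.54, and those of unlike-numbered hearts at up to 0.44, so the numbers gave no sign of a pairing. With a replicate block 6 of the 7 genes were called in WT against floxed, Nppb among them (log2 fold change 1.29, adjusted p = 0.0375 in edgeR). Without the block edgeR already called 31.8% of all genes higher and 33.4% lower there, and the share under the block is not given here. Since the numbers gave no sign of a pairing, no conclusion is drawn from the Nppb call. The pathway genes gave 13 calls higher and 20 lower under that block, against 15 and 20 without it. For the difference between models 0 of the 7 were called with the block, which left 0 of all genes called, against 383 without it. KI/KI and cKO hearts share numbers as well, with correlations of 0.21, 0.20 and 0.085 at the same number, the last under the bar of 0.1 set for every pair. Unlike-numbered hearts correlated at -0.32 to 0.17, below the values at numbers 4 and 5. These values do not settle whether the mutant hearts were paired. No paired analysis was possible because WT and KI/KI hearts share no replicate number, nor do floxed and cKO hearts. Nppc lay near the depth limit in all hearts.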
